A study of Mus musculus with 24 samples.

Results

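The circadian clock genes of adult mouse dorsal root ganglia (DRG) are described here. The 10 genes were given by name: Arntl (also called Bmal1), Clock, Per1, Per2, Per3, Cry1, Nr1d1, Nr1d2, Dbp and Ccrn4l (also called Noct). They are 10 of the 12655 genes tested and of the 37620 genes listed, and all 10 passed the filter on low values, which asked for a mean log2 RPKM of at least 0 in at least 1 group. Several passed only through the groups where they are high: Arntl through lumbar males, Per3 through lumbar females, Ccrn4l through sacral females, and Dbp and Per2 through both female groups. A value was given in all 24 samples for 9 of the 10, and Arntl was blank in 2 samples. The genes were chosen with the values of these samples known, to ask whether the state of the clock differs between mice handled separately while both spinal levels of a mouse agree. Differences of these 10 genes between mice, sexes and spinal levels are therefore given as a description. Where a count of them called by a model is printed beside that of all genes, nothing is read from it.

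DRG hold the cell bodies of sensory neurons with their glia. Each sample held ganglia of 1 spinal level from 1 wild-type C57Bl/6 mouse aged 6 to 8 weeks, with no treatment given in the labels. Lumbar samples held the ganglia L4-5, and sacral samples held L6-S1, which include the neurons of the pelvic organs. The groups were lumbar male (5 samples), sacral male (5), lumbar female (7) and sacral female (7), from 13 mice by the numbers in the sample titles. The titles hold 8 female numbers, 1 more than the study's methods give, so n = 13 rests on the titles alone. Both levels were measured in 11 mice (5 male and 6 female), which are called here by sex and number (male 11 and female 11 are different mice). Female 20 gave only a lumbar and female 13 only a sacral sample. Batch 1 held 5 female samples from 3 mice (female 11, 12 and 13) and was prepared in another facility, and batch 2 held the other 19, with all males. The time of day of dissection is not given in the sources used here, so levels are reported and no clock phase was assigned to a mouse.

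The clock of a mammalian cell is a loop of transcription. ARNTL and CLOCK pair, bind E-box motifs and switch on the Per, Cry and Nr1d genes and the output gene Dbp. PER and CRY proteins then block ARNTL and CLOCK, while the nuclear receptors NR1D1 and NR1D2 (REV-ERBs) repress Arntl, so that in most mouse tissues Arntl mRNA peaks at the opposite time of day from Nr1d1 and Dbp. DBP and its relatives TEF and HLF in turn drive genes with D-box motifs, such as Per3.

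The DNA just before the start of 5 of the genes is shown, because clock proteins act on them through short motifs. The sequences are the 250 bases before an annotated start, from RefSeq on GRCm38.p6, written 5′ to 3′ on the strand of the gene. Of the 10 members 9 matched the promoter table, with 13 starts, and Per2 had no entry. Capitals mark the motifs searched on both strands: the E-box CACGTG, the D-box TTATGTAA or TTACGTAA, and AGGTCA, the core bound by REV-ERB and ROR receptors. Nr1d1 is at chr11:98775378-98775627 (− strand), Dbp at chr7:45704997-45705246 (+ strand), Nr1d2 at chr14:18239107-18239356 (− strand), Per3 at chr4:151044666-151044915 (− strand) and the more upstream start of Per1 at chr11:69098699-69098948 (+ strand).
Nr1d1: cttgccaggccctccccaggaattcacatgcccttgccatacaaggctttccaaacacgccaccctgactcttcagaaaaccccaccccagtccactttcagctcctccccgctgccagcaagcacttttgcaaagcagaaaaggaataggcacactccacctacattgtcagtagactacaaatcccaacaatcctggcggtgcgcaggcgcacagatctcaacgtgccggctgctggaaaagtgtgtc
Dbp: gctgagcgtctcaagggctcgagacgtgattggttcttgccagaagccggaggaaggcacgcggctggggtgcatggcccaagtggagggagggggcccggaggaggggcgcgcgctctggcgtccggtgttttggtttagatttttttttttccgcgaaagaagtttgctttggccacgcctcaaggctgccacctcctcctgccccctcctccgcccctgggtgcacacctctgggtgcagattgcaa
Nr1d2: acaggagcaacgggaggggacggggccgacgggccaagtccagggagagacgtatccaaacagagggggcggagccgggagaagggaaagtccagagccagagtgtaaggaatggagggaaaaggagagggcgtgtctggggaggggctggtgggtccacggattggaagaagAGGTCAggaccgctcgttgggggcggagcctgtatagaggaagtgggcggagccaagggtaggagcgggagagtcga
Per3: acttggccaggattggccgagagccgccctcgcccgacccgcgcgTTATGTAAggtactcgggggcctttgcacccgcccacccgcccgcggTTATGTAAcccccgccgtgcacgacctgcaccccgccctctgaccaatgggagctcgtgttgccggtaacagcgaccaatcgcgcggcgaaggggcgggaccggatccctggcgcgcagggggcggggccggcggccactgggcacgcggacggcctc
Per1: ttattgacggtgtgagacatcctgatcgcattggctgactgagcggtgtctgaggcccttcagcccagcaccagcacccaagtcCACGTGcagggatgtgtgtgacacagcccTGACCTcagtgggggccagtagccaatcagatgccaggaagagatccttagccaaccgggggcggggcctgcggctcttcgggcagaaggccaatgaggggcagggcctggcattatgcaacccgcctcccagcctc

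Per3 held the D-box at 205 and at 158 bases before its start. Per1 held an E-box at 166 bases and an AGGTCA (on the other strand, TGACCT) at 137 bases before its start, and Nr1d2 held an AGGTCA at 77 bases. Cry1 held an E-box at 60 bases, and 1 of the starts of Clock held an AGGTCA at 119 bases. These motifs were not found in the windows of Nr1d1, Dbp, Arntl and Ccrn4l, which says only that these letters are not in these bases. Among all 32851 windows of this length in the table, 6.02% held the E-box, 0.931% the D-box and 14.02% AGGTCA, so a match describes a window and is not shown to be a site.

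Over all samples Clock and Nr1d1 were the most abundant members, and Arntl was the least. In lumbar males alone Dbp was the least, at a mean of −2.16, and Arntl was at 0.45. Values are RPKM on a log2 scale, that is reads scaled to gene length and to library size, so levels are per length and can be set between genes. The mean over the 24 samples was 3.44 for Clock, 3.19 for Nr1d1, 1.19 for Nr1d2, 0.73 for Cry1, 0.38 for Per1, −0.08 for Per2, −0.35 for Ccrn4l, −0.39 for Per3 and −0.44 for Dbp. Arntl had a mean of −1.31 over the 22 samples with a value, and of −1.86 with its blanks set to 0.5 reads. Each neighbour in this order was set against the next over the 13 mice, each mouse as the mean of its samples, as a description with no test. Nr1d1 was above Nr1d2 in 13 of 13 mice, by 2.01 ± 0.483 on the log2 scale (SD, n = 13). For the other 8 neighbours the difference lay within its SD over mice, and the upper gene was higher in 7 to 10 of the 13 mice. The spread over samples also differed between genes, from an SD of 0.229 for Clock to 0.741 for Nr1d1, 1.26 for Dbp and 1.81 for Arntl (n = 24, and 22 for Arntl).

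The depth behind the values differed widely between members. The libraries held 27.6 to 44.6 M reads (M for mega), as the size of the smallest steps between values gave them. A value of Clock corresponded to about 2345 to 5062 reads after the batch adjustment, of Nr1d1 to about 413 to 2562, of Dbp to about 2.59 to 194 and of Arntl, where it was seen, to about 4.95 to 542. The low ends of Dbp and Arntl therefore rest on a few reads. The RNA was amplified and carried no molecular identifiers, so reads are not independent molecules.

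**Figure D1:**
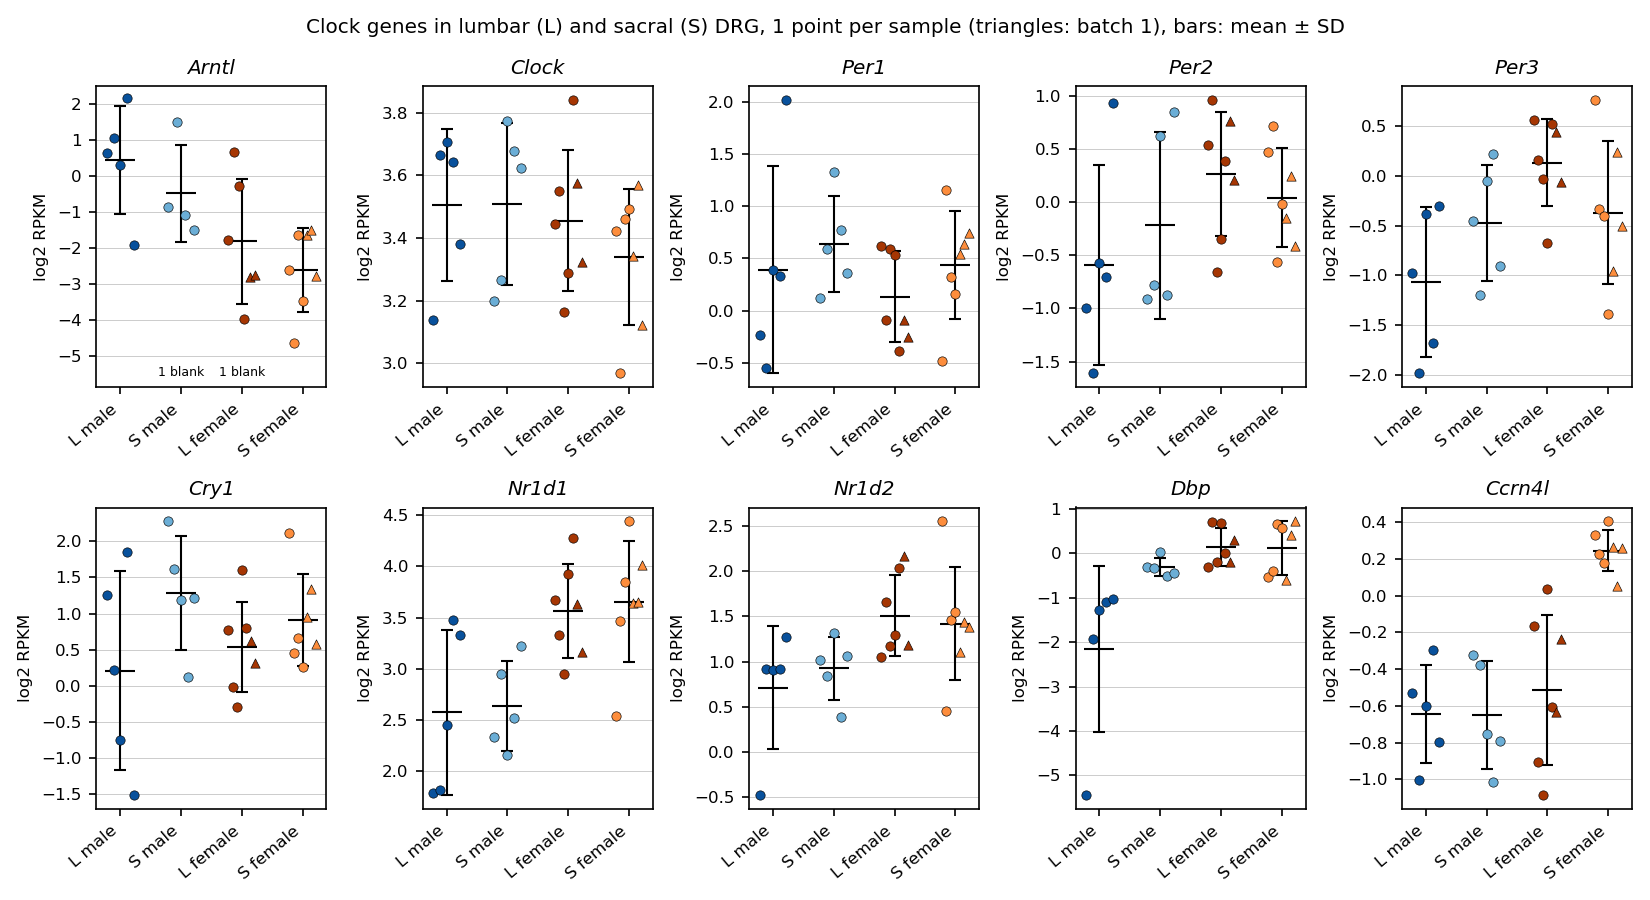
Log2 RPKM of each clock gene (vertical axis, 1 panel a gene) in lumbar (L) and sacral (S) samples of males and females, 1 point a sample, with the mean ± SD of each group as a bar and batch 1 samples as triangles. All lumbar male points of Dbp lie below all lumbar female points, and all sacral female points of Ccrn4l lie above all sacral male points.

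Among the activators, Arntl (chr7:120350979-120457636 on mm9, + strand), the partner of CLOCK without which the loop stops, was read at 0.65, 1.06, 0.30, 2.16 and −1.91 log2 RPKM in lumbar males 11 to 15. In sacral males it was at −0.86, blank, 1.49, −1.07 and −1.50 in the same order of mice. Lumbar females ranged from −3.97 to 0.68 around a median of −2.27 with 1 of 7 blank, and sacral females from −4.63 to −1.49 around −2.61. Most males were above most females, but the sexes overlapped at both levels. Male 15 was low at both, and lumbar female 20 stood above 3 of the 5 lumbar males. Clock (chr5:76639992-76733817 on mm9, − strand), the other activator, was nearly level: the 24 samples ran from 2.97 to 3.84, and the group means were 3.51 ± 0.24 in lumbar males (SD, n = 5), 3.51 ± 0.26 in sacral males (SD, n = 5), 3.45 ± 0.22 in lumbar females (SD, n = 7) and 3.34 ± 0.22 in sacral females (SD, n = 7).

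Female minus male, Arntl was at −3.30 ± 1.42 (SE of the limma model) in lumbar and −0.90 ± 1.48 in sacral samples on the log2 scale. These estimates rest on how the 2 blanks were filled, since 0.5 reads lies far below the other values. The fill also left out the authors' batch adjustment, which had raised the seen batch 2 values, so both blanks stand lower still. With blanks left missing the estimates were −2.27 and −2.13. On log2(RPKM + 1) the lumbar value was −0.92. Leaving out 1 mouse or library at a time gave −4.01 to −2.15 in lumbar samples and −2.37 (without male 12) to −0.0466 (without male 13) in sacral samples. Clock differed by −0.05 ± 0.16 and −0.17 ± 0.16.

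The nuclear receptor Nr1d1 (chr11:98629246-98636647 on mm9, − strand), the repressor of Arntl, was at 1.79, 1.82, 2.45, 3.48 and 3.33 in lumbar males 11 to 15 and at 2.33, 2.95, 2.16, 2.52 and 3.23 in their sacral ganglia. Lumbar females ranged from 2.95 to 4.28 around a median of 3.63, and sacral females from 2.54 to 4.44 around 3.65. Males were thus mostly lower at both levels, and the groups overlapped through males 14 and 15 in lumbar and through female 19 in sacral samples. The female minus male difference was 0.99 ± 0.33 (SE) in lumbar and 1.02 ± 0.35 in sacral samples, about 1.99-fold and 2.03-fold. Within batch 2 alone it was 1.06 and 0.94. Leaving out 1 mouse or library at a time gave 0.79 to 1.21 in lumbar and 0.78 to 1.30 in sacral samples.

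Its paralogue Nr1d2 (chr14:19036568-19071641 on mm9, − strand), with the same role, was at −0.48, 0.92, 0.91, 0.92 and 1.27 in lumbar males 11 to 15. Sacral males were at 1.02, 0.84, 1.32, 0.39 and 1.06, lumbar females at 1.05 to 2.16 (median 1.29) and sacral females at 0.45 to 2.55 (median 1.44). The sexes overlapped at both levels, in lumbar samples only through male 15 at 1.27. The female minus male difference was 0.80 ± 0.34 in lumbar and 0.50 ± 0.36 in sacral samples. It was 0.50 in lumbar samples without male 11 and 0.23 in sacral samples without female 19, the lowest values with 1 mouse left out, and the highest were 0.94 and 0.76.

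Among the outputs, Dbp (chr7:52960458-52965525 on mm9, + strand), a transcription factor that is among the most rhythmic mRNAs of many tissues, was at −5.44, −1.93, −1.29, −1.10 and −1.02 in lumbar males 11 to 15. The same males were at −0.31, −0.32, 0.03, −0.50 and −0.44 in sacral ganglia. Lumbar females ranged from −0.32 to 0.69 (median 0.00) and sacral females from −0.61 to 0.72 (median 0.42). The lumbar sexes did not overlap, since the highest male stood below the lowest female, while the sacral sexes did. Over all genes tested, lumbar females and males did not overlap in 0.561% and sacral ones in 1.25%. The difference was 2.29 ± 0.60 in lumbar and 0.43 ± 0.63 in sacral samples, or 4.90-fold and 1.35-fold. Without the lumbar sample of male 11, whose value of Dbp corresponded to about 2.59 reads after the batch adjustment, the lumbar difference was 1.47. Within batch 2 alone it was 2.33. On log2(RPKM + 1), which shrinks differences between low values, it was 0.69.

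Ccrn4l (chr3:51028369-51055566 on mm9, + strand), which encodes nocturnin, a phosphatase with a rhythmic mRNA in many tissues, was split by sex at the other spinal level. It was at −0.53, −1.0, −0.60, −0.30 and −0.80 in lumbar males 11 to 15 and at −0.32, −0.38, −0.75, −1.01 and −0.79 in their sacral ganglia. Lumbar females ranged from −1.09 to 0.04 (median −0.61), and sacral females from 0.06 to 0.41 (median 0.26). Here the sacral sexes did not overlap and the lumbar sexes did. Female minus male was 0.13 ± 0.35 in lumbar and 0.90 ± 0.37 in sacral samples, and the latter was 0.42 on log2(RPKM + 1).

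The Per and Cry genes encode the proteins that close the loop. Per3 (chr4:150377761-150418774 on mm9, − strand) was at −0.98, −1.99, −0.38, −1.68 and −0.30 in lumbar males 11 to 15, against −0.67 to 0.56 in lumbar females (median 0.16). Sacral males were at −0.45, −1.19, −0.06, 0.22 and −0.90, inside the range of sacral females from −1.39 to 0.76 (median −0.40). Lumbar males 11, 12 and 14 stood below all lumbar females, while no sacral male stood below all sacral females. The difference was 1.19 ± 0.47 in lumbar (0.49 on log2(RPKM + 1)) and 0.11 ± 0.49 in sacral samples. Per2 (chr1:93312561-93355907 on mm9, − strand) was at −0.99, −1.61, −0.57, −0.70 and 0.94 in lumbar males and at −0.91, −0.78, 0.63, −0.87 and 0.85 in sacral males. Lumbar females ranged from −0.65 to 0.97 (median 0.39) and sacral females from −0.56 to 0.72 (median −0.02). Male 15 was at or near the top of all samples for Per2 at both levels, and the differences were 0.86 ± 0.48 and 0.26 ± 0.50. With 1 mouse left out they ran from 0.60 to 1.24 and from 0.0825 to 0.53, and the sacral one of Per3 from −0.21 (without female 19) to 0.34.

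Per1 (chr11:68908719-68923462 on mm9, + strand), the Per gene that also responds to acute signals, ran from −0.55 to 2.02 in males (median 0.37, 10 samples) and from −0.48 to 1.15 in females (median 0.43, 14 samples). The highest value was the lumbar sample of male 15. Cry1 (chr10:84594447-84647799 on mm9, − strand), the late repressor of the loop, ran from −1.51 to 2.28 in males (median 1.20) and from −0.30 to 2.11 in females (median 0.64). The sexes overlapped for both genes at both levels, with female minus male at −0.26 ± 0.41 and −0.20 ± 0.43 for Per1 and at 0.33 ± 0.51 and −0.37 ± 0.54 for Cry1. Leaving out male 15 turned the lumbar sign of both, to 0.15 for Per1 and −0.10 for Cry1. With 1 mouse or library left out the sacral value of Cry1 ran from −0.69 to −0.12.

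Set side by side, the fitted means of Dbp, Nr1d1, Nr1d2, Per2, Per3 and Ccrn4l were higher in females at both levels, those of Arntl, Clock and Per1 were lower at both, and Cry1 was higher in lumbar and lower in sacral samples. With 1 mouse left out the sign turned for Clock in lumbar (0.0304 without female 21), Per1 in lumbar and in sacral (0.0108 without female 19), Cry1 in lumbar and Per3 in sacral samples. In the limma model over all genes with Benjamini-Hochberg adjustment, 0 of the 10 members were called for female minus male in lumbar samples, against 0.0474% of all genes, and 0 of 10 in sacral samples, against 0.079%. The counts at an unadjusted p under 0.05 were 5 of 10 in lumbar (7.4% of all genes) and 2 of 10 in sacral samples (8.72%). For the mean of both levels 0 of 10 were called against 0.174%, and 3 of 10 against 11.4% had an unadjusted p under 0.05. Batch 1 holds no males, and for the 9 members with no blank the authors' adjustment set its females to the level of the batch 2 females, so these genes cannot be compared in level between batches.

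**Figure D2:**
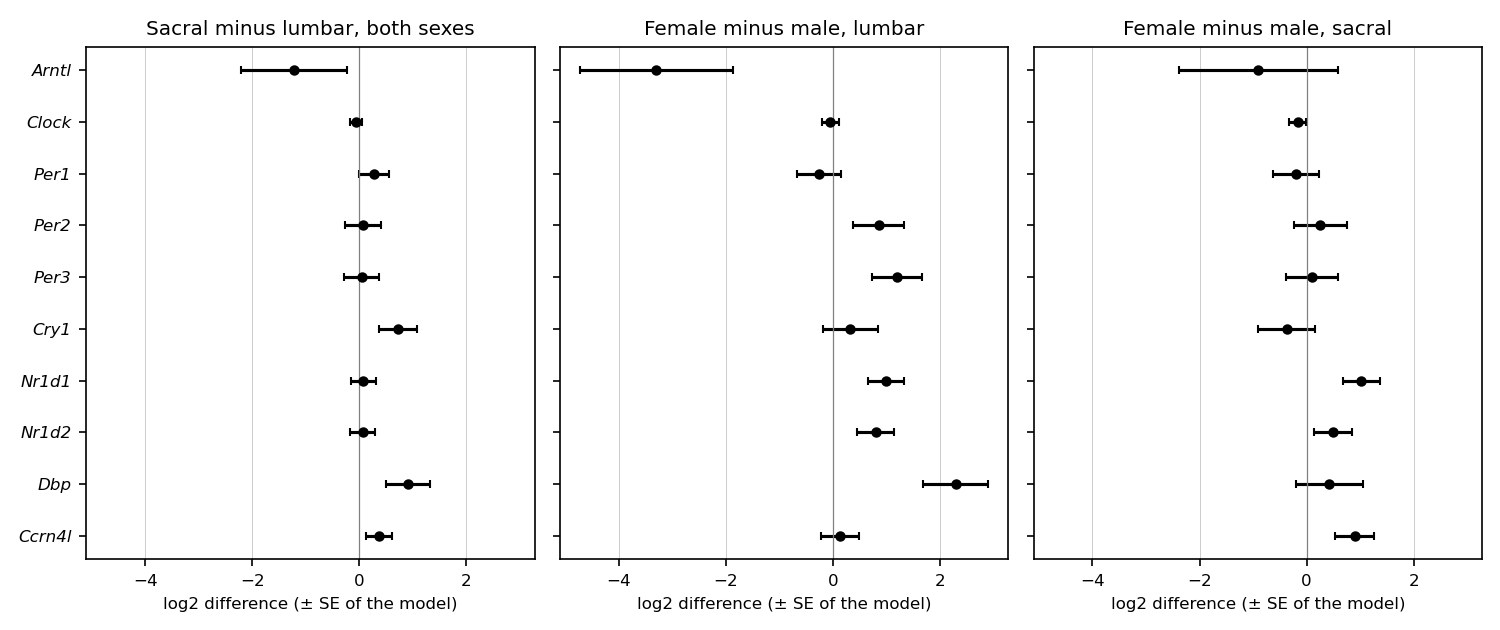
Log2 difference (horizontal axis) of each clock gene for sacral minus lumbar over both sexes, and for female minus male in lumbar and in sacral samples, with the SE of the limma model as a bar. Dbp (2.29) and Arntl (−3.30) stand farthest from 0 in the lumbar panel, Nr1d1 is near 1 at both levels, and Clock is near 0 in all 3 panels.

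Sacral minus lumbar over both sexes, Dbp was at 0.92 ± 0.42 on the log2 scale (SE of the limma model), with sacral higher in 7 of 11 mice. Without the lumbar sample of male 11 the value was 0.50, and under the alternatives that leave out no mouse it ran from 0.23 to 0.96. In males Dbp was at 1.85 ± 0.63 with sacral higher in 5 of 5 (1.03 without male 11), and in females at −0.02 ± 0.54 with sacral higher in 2 of 6. Cry1 was at 0.72 ± 0.36 and higher in sacral ganglia in 8 of 11 mice, and with 1 mouse left out it ran from 0.51 to 1.07. Ccrn4l was at 0.38 ± 0.24 with 9 of 11 mice, 6 of 6 among females and 3 of 5 among males. Per1 was at 0.28 ± 0.28 with 8 of 11 mice, and 0.16 to 0.51 with 1 mouse left out. Arntl was at −1.22 ± 0.98, yet sacral was higher in 6 of 11 mice and the median of the pairs was 0.42. Its estimate rests on the filled blanks, which pull in opposite directions. The pair of male 12, blank in sacral, was at −8.92, and the estimate was −0.40 without that mouse. The pair of female 21, blank in lumbar, was at 3.25. Over samples with a value the means were 0.45 in lumbar and −0.49 in sacral males. In females these means were −1.82 in lumbar and −2.61 in sacral samples. The remaining members, Clock, Nr1d1, Nr1d2, Per2 and Per3, lay between −0.06 and 0.08. For Per3 and Per2 this value averages sexes of opposite sign, at 0.59 ± 0.49 in males and −0.50 ± 0.42 in females for Per3 and at 0.37 ± 0.50 and −0.23 ± 0.43 for Per2.

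In the same limma model 0 of the 10 members were called for sacral minus lumbar, against 2.44% of all genes, and 1 of 10 had an unadjusted p under 0.05, against 14.1%. In males alone 0 of 10 were called against 0.648% of all genes, and in females alone 0 of 10 against 0.45%, with 1 of 10 at an unadjusted p under 0.05 in each (11.2% and 8.42% of all genes). For the interaction of level with sex 0 of 10 members and 0% of all genes were called, and 1 of 10 members against 4.62% of all genes had an unadjusted p under 0.05.

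Markers of some other cells of the ganglia differed with spinal level. The 7 markers of myelinating Schwann cells had lower means in sacral samples in 7 of 7, with a median of −1.30 and 5 called, and their mean log2 RPKM was 5.66 to 6.75 in lumbar males, 3.59 to 5.28 in sacral males, 5.47 to 6.32 in lumbar females and 4.53 to 5.63 in sacral females. With the mean of these markers as a covariate the level difference was 0.0089 ± 0.594 (SE) for Cry1, 0.0526 ± 0.412 for Ccrn4l and 0.84 ± 0.47 for Per1. It was 0.74 ± 0.53 for Per3, 0.51 ± 0.57 for Per2 and 0.96 ± 0.73 for Dbp. Without the covariate the SE was 0.36 for Cry1 and 0.42 for Dbp. The markers themselves followed spinal level, so their part and that of level cannot be told apart. The female minus male differences with this covariate were 2.31 and 0.42 for Dbp and 0.93 and 1.07 for Nr1d1, in lumbar and sacral samples. In whole ganglia fewer cells of a type and less RNA per cell cannot be told apart. Of 7 neuron markers 2 changed with spinal level, and of 4 satellite glia markers 1 did, with values from −0.32 to 0.31 and from −0.60 to 0.47. The neuron markers summed to 1514 to 3027 RPKM over all samples. The 4 neutrophil markers (S100a8, S100a9, Ngp and Mmp8) had higher means in sacral samples in 4 of 4, with a median of 1.55, 0 called and 4 of 4 at an unadjusted p under 0.05. Between sexes, 4 of 4 of them had lower means in sacral females and 3 of 4 in lumbar females, with 0 called and medians of −1.12 and −0.82. Their sum ran over 25.9 to 192 RPKM in lumbar males, 20.3 to 102 in lumbar females, 88.1 to 229 in sacral males and 58.4 to 167 in sacral females. The 4 red cell markers had lower means in females in 4 of 4 at both levels (medians −1.01 in lumbar and −0.70 in sacral). The 4 fibroblast markers had higher ones in 3 of 4 and 4 of 4 (medians 0.23 and 0.43), with 0 called in both lists. At an unadjusted p under 0.05 were 3 and 0 red cell and 2 and 2 fibroblast markers, against 7.4% and 8.72% of all genes. In sacral against lumbar samples red cell markers were higher in 4 of 4 (median 0.63) and fibroblast markers lower in 4 of 4 (median −0.28), with 0 called. The part of neutrophils, red cells and fibroblasts in the values of the clock genes was not tested.

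Whether the spinal levels of a mouse agree was described within sex and batch. Each value was set against the mean of its sex, batch and level, and the lumbar and sacral deviations were correlated over the 11 mice with both levels. Pearson's r was 0.56 for Per2, 0.51 for Clock, 0.34 for Nr1d1, 0.19 for Arntl, 0.17 for Dbp, 0.0053 for Per3, −0.00084 for Per1, −0.07 for Cry1, −0.12 for Nr1d2 and −0.35 for Ccrn4l. The median of the 10 was 0.09 with 6 of 10 above 0, against −0.02 over 12651 genes, whose central 90% ran from −0.60 to 0.59. All 10 members lay inside that span. Over all genes of 1 mouse the deviations of its levels correlated at −0.03 to 0.07 (mean 0.01). The 2 mice of batch 1 with both levels mirror each other by construction.

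Per2 and Nr1d1 show which mice carry these values. Male 15 was 1.53 above the male mean for Per2 in lumbar and 1.07 above it in sacral samples, whereas male 12 was at −1.02 and −0.56. Without the 2 mice whose lumbar deviations lay farthest from the median, r of Per2 was 0.12, so it rests on those mice. For Nr1d1, male 15 was at 0.76 and 0.59, female 23 at 0.57 and 0.87, and male 11 at −0.79 and −0.31. Male 14 (0.90 and −0.12) and male 12 (−0.75 and 0.31) changed side between levels. For Clock, whose deviations stayed within 0.41, males 11 (−0.37 and −0.31) and 13 (0.20 and 0.27) and female 21 (−0.27 and −0.37) held their side. In all 6 of 11 mice did so for Clock and 5 changed side, among them male 12 (0.16 and −0.24) and male 15 (−0.12 and 0.11). Over the 10 members, the mice that held their side ran from 4 of 11 for Ccrn4l to 8 of 11 for Arntl. Without the 2 mice farthest by lumbar deviation r was 0.50 for Dbp, 0.38 for Cry1, 0.30 for Nr1d1, 0.28 for Per1 and 0.27 for Clock. It was −0.07 for Nr1d2, −0.10 for Arntl, −0.33 for Per3 and −0.51 for Ccrn4l. This choice ignores the sacral deviations. For Arntl it kept male 12, whose filled sacral blank gave a deviation of −5.90. In an F test between mice of the same sex and batch over all genes, 0 of 10 members and 0% of genes were called, and 1 of 10 members (Nr1d1) against 5.14% of genes had an unadjusted p under 0.05.

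**Figure D3:**
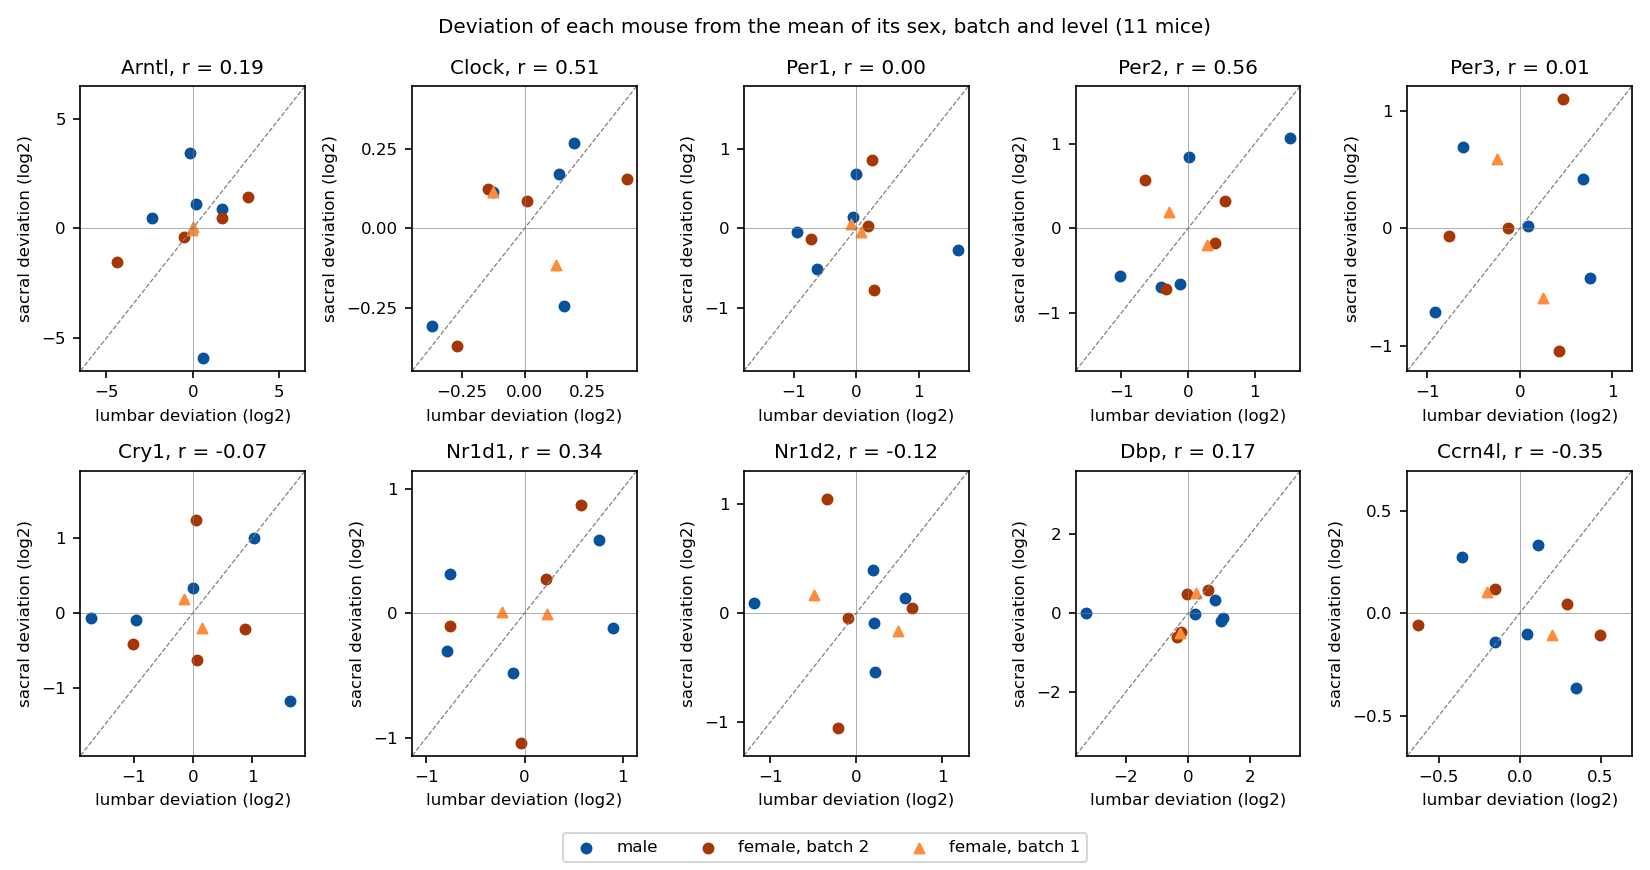
Deviation of the lumbar sample (horizontal axis, log2) against that of the sacral sample (vertical axis, log2) of each of 11 mice from the mean of their sex, batch and level, 1 panel a gene, with equality as a dashed line. Per2 has the highest r (0.56), with male 15 far up at both levels, and the Dbp panel is stretched by the lumbar sample of male 11.

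**Figure D4:**
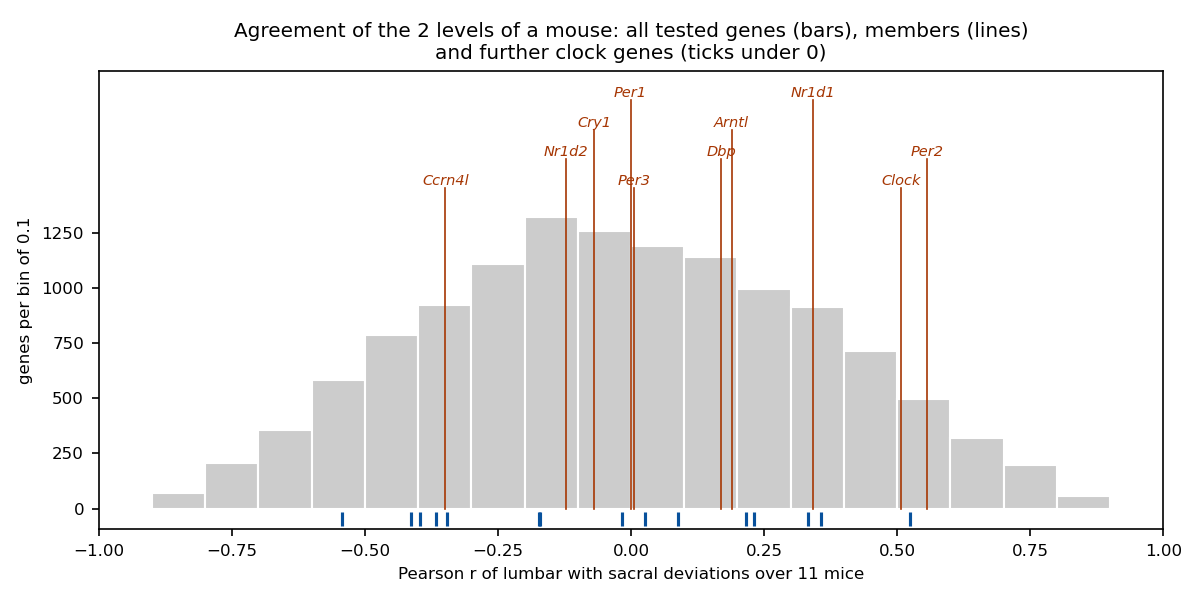
Histogram of r between lumbar and sacral deviations over 11 mice for 12651 genes (vertical axis, genes per bin of 0.1), with lines for the 10 clock genes and ticks for 15 further clock genes. The clock genes run from −0.35 to 0.56, inside the central 90% of all genes.

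The course of Arntl beside that of its targets was described over mice. Residuals of the model with group means and batch were averaged per mouse, and Arntl was correlated with each of the 9 other members over 13 mice, with no test, since the members were chosen on how mice differ. With Nr1d1, Pearson's r was −0.05 and Spearman's rho −0.19, and r was −0.19 without the 2 mice farthest from the median of Arntl. With blanks left missing these were −0.29, −0.18 and −0.52. With Dbp r was 0.22 and rho 0.37, and r was −0.01 without those 2 mice. With blanks left missing the values for Dbp were 0.27, 0.40 and 0.08. The highest r over all 13 mice was that with Clock, at 0.42 (rho 0.39). It was 0.14 without those 2 mice, and 0.29 over all mice with blanks left missing. Without those 2 mice the highest r were those with Per3 (0.52) and Ccrn4l (0.50). The blanks of Arntl and its few reads weigh on these values.

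Genes with the course most like Dbp and Arntl were named by the correlation of residuals over the 24 samples, after group and batch were taken out, among 12112 genes. For Dbp the closest 8 outside the list were Cse1l (r = 0.82), Dusp5 (0.81), Fam20a (0.81), Yipf3 (0.78), Bcat1 (0.77), Zfyve20 (0.77), Crim1 (0.77) and Gtf2i (0.75). Among members Nr1d2 (0.51) and Nr1d1 (0.51) came nearest to Dbp, and Cry1 (−0.31) was farthest. For Arntl the closest were Gpr165 (0.78), Nasp (0.77), Terf2 (0.76), Apbb3 (0.76), Eml4 (0.75), Nsun2 (0.75), Slc4a7 (0.75) and 1110037F02Rik (0.74), and Clock (0.43) was the nearest member. The 24 points share mice and libraries, and the samples of lowest Dbp and the blanks of Arntl weigh on these values.

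A wider list of 21 clock genes outside the members was fixed for the same comparisons, of which 15 passed the filter. The other 6 did not, Npas2, Arntl2 and Nfil3 among them. Several of the 15 passed only through the groups where they are high, such as Usp2 through males, Wee1 through sacral females and Timeless through the groups other than sacral females, so nothing is read from the counts. In the limma model 0 of 15 were called for sacral minus lumbar (2.44% of all genes), for female minus male in lumbar (0.0474%) and for female minus male in sacral samples (0.079%). At an unadjusted p under 0.05 there were 1, 2 and 2 of 15, against 14.1%, 7.4% and 8.72% of all genes.

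The relatives of Dbp that bind the same D-box are Hlf and Tef. Hlf, named after its values were seen, was at −0.69, −1.54, 1.48, 1.33 and 1.70 in lumbar males 11 to 15 and at 1.23 to 3.01 in lumbar females (median 1.67), and the groups overlapped through males 13 to 15. Female minus male was 1.34 ± 0.52 in lumbar (SE, adjusted p = 0.598) and 0.58 ± 0.54 in sacral samples (adjusted p = 0.795). Tef was at 0.46 ± 0.27 (adjusted p = 0.724) and 0.49 ± 0.28 (adjusted p = 0.654). Rora, a receptor that activates Arntl through the site that the REV-ERBs occupy, was at 0.69 ± 0.28 (adjusted p = 0.615) and 0.44 ± 0.29 (adjusted p = 0.692). Timeless, a partner of the replication fork with a debated place in the clock, was at −0.50 ± 0.52 and −1.44 ± 0.54. It passed the filter only through groups other than sacral females, so its values are a description with no test.

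Cry2, the paralogue of Cry1, was at −0.13 ± 0.18 and −0.31 ± 0.19 for female minus male (adjusted p = 0.906 and 0.675). The kinase gene Csnk1e, whose product phosphorylates PER, was at 0.11 ± 0.18 and 0.32 ± 0.19 (adjusted p = 0.923 and 0.659). Bhlhe40, a repressor that competes for E-boxes, was at 0.55 ± 0.36 and 0.40 ± 0.37 (adjusted p = 0.761 and 0.795). Agreement of the levels of a mouse was set for these 15 genes beside an exact one-sided permutation within sex and batch (5760 reassignments). The list was also drawn up with earlier results of these data known. Several of its genes passed the filter only through their high groups, so nothing is read from the outcome. The median r was −0.02, and the highest was Rora at 0.52 (exact p = 0.0826, rho 0.44, exact p = 0.127, exact adjusted p = 0.914). Without the 2 mice farthest by lumbar deviation r of Rora was 0.10. The next were Bhlhe40 at 0.36, Csnk1e at 0.33, Timeless at 0.23 (rho −0.03), Cry2 at 0.22 and Tef at 0.09. Without their 2 farthest mice these were 0.04, −0.26, 0.09, 0.22 and 0.37, in the same order. None of the 15 passed or had an unadjusted p under 0.05.

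Stress hormones and handling also act on the Per genes, so genes known to answer to such signals are given beside them. Of a list of 10 glucocorticoid responsive genes 9 were tested and 0 called for either sex contrast, against 0.0474% of all genes in lumbar and 0.079% in sacral samples. Their female minus male values were below 0 in 9 of 9 in lumbar samples (median −0.29, 0 of 9 at an unadjusted p under 0.05) and in 6 of 9 in sacral samples (median −0.07, 2 of 9). Of 11 immediate early genes 6 were tested and 0 called, with medians of 0.21 and 0.10 and 1 of 6 at an unadjusted p under 0.05 at each level. Of all genes 7.4% in lumbar and 8.72% in sacral samples had an unadjusted p under 0.05. For the mean of both levels 3 of 9 glucocorticoid responsive and 1 of 6 immediate early genes did, against 11.4% of all genes.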

How the data were processed

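RNA of whole DRG was amplified, prepared as libraries by tagmentation and sequenced by the authors. Per the study's methods, reads were aligned to mm9 with Subread, featureCounts gave the uniquely mapping reads of each Ensembl gene, and counts were turned into log2 values with voom and TMM scaling (edgeR 3.12.1 and limma 3.26.9 in the submitters' processing notes). The deposited values are log2 RPKM, from which the authors had subtracted the batch difference. A fit to the genes with a value in all samples gave a largest batch coefficient of 0. Genes with blanks, Arntl among them, were not covered by that check. Strandedness of the counting is not given in the sources used here.

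Blank cells (30.3% of cells in genes with a value) were set to the log2 RPKM of 0.5 reads of that gene and sample. Library sizes were recovered from the steps between low values. The fill did not carry the authors' batch adjustment, which the seen values carry. For Arntl that adjustment had raised the batch 2 values, so its 2 blanks, both in batch 2, stand too low beside them. Genes were named from GENCODE M1 on mm9. Models were fitted to 12655 genes in R 4.3.3 (limma 3.58.1, statmod 1.5.0): 4 group means and batch, mouse as a random block (estimated correlation −0.02), eBayes with a trend, and two-sided Benjamini-Hochberg adjusted p over all genes, called at 0.05 or less. The design planned no fill of blanks. The F test between mice used 8 contrasts in 11 mice. Samples were paired by the mouse numbers in the titles, and deviations of paired samples correlated across genes at −0.03 to 0.07 (mean 0.01). Mice are separate animals, and the age, strain and facility come from the labels and methods. Correlations and permutations used Python 3.11.15 with scipy 1.17.1. The scripts were tested on simulated data.

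The members and gene lists were chosen with earlier results of these data known. Genes named as most like a reference were the 8 with the highest r outside the members, for Dbp and for Arntl. Of the further clock genes, the 6 with the highest agreement were named, besides any that was called. Alternatives covered the block, the blanks, the pseudocount, the filter, the batch, the scaling, a Schwann cell covariate and each mouse left out in turn, and those added after the values were seen are named as such. Some genes of these lists are not reported here by name.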

Additional observations from a re-analysis of the deposited data

Results flagged for a closer look

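In lumbar males the sample of male 11 stood apart from the other 4 for Dbp, at −5.44 log2 RPKM against −1.93 to −1.02, and for Nr1d2, at −0.48 against 0.91 to 1.27. In each case the gap to the nearest sample was a larger part of the range of the group than Dixon's 95% limit allows. The 10 genes in 4 groups gave 40 such checks, of which 2 were past the limit, and chance passes about 1 in 20. The sacral sample of the same mouse was at −0.31 for Dbp and 1.02 for Nr1d2, inside the range of the other sacral males for both genes.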

How the results depend on the processing

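Under 25 alternative settings of the models 0 members were called for sacral minus lumbar, and under the 24 of them that give a sex contrast 0 were called for female minus male at either level. With a filter at a mean log2 RPKM of 2 only Clock and Nr1d1 were left to test, and the fixed block gives no sex contrast. The further clock genes had 0 calls in the settings and contrasts fitted. For the mean of both levels, added after the values were seen, Nr1d1 was at 1.01 for female minus male with all mice and the batch term, at 1.17 without male 15, at 1.17 without female 19 and at 1.00 without a batch term. The last 3 settings called it, and nothing is read from that, since the gene was chosen on such differences. Removing the mouse block (0 members called) or using the replicate block as a fixed effect in paired mice (0 called) changed no call, with Dbp at 0.91 for spinal level in both.

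Of 242 level differences under alternatives 16 changed sign, all of genes near 0 or blank in some samples. Leaving out a mouse or library gave −0.0613 to 0.14 for Per2, −0.12 to 0.19 for Per3, −0.0548 to 0.21 for Nr1d1 and −0.10 to 0.16 for Nr1d2. With the Schwann cell covariate Arntl was at 0.95, Clock at 0.0543 and Nr1d1 at −0.15, with log2(RPKM + 1) Per3 was at −0.0040, and without the samples blank for Arntl Nr1d1 was at −0.00965. The correlation of Arntl over mice ran, with a mouse left out, over −0.42 to 0.10 with Per1, −0.27 to 0.0441 with Nr1d1, −0.12 to 0.36 with Nr1d2 and −0.17 to 0.70 with Ccrn4l. It was −0.0398 with Per2 and −0.16 with Ccrn4l on log2(RPKM + 1), and −0.13 with Per2 and −0.0109 with Per3 with blanks left missing. The cause was not tested. The median agreement of the levels ran from −0.01 to 0.20. Of the 16 genes named as most like Dbp or Arntl 11 were also named within batch 2 and 2 by Spearman's rho. With Nr1d1 as the reference, added after the values were seen, Sec23ip was closest (r = 0.75) and Dbp was the nearest member (0.51). Low reads limit Dbp and Arntl most.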
